A study of Mus musculus with 21 samples.

Results

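The genes described here are 34 genes of glycolysis and glycogen metabolism, taken by name from a fixed list: glucose carriers, the enzymes of the glycolytic steps in their muscle and non-muscle forms, lactate dehydrogenases, the enzymes of the glycerol phosphate shuttle, and the enzymes that build and break down glycogen. Of these, 30 had a probe set (the group of probes that measures 1 transcript) annotated with that symbol alone, among 19752 genes with such a probe set. All 30 lay above the filter on low values, which left 13278 genes for testing. Gpi1, Eno1 and Pfkfb1 matched no probe set and were not analysed here. Gapdh was matched only by 19 probe sets that list several symbols, and its values are given as a range over these with no test.

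Whole tibialis anterior muscle, the muscle at the front of the shin, was measured on 21 Affymetrix Mouse Gene 1.0 ST arrays. The mice were male C57BL/6, 8 weeks old, and carried (Foxp3-DTR+) or did not carry (Foxp3-DTR-) a diphtheria toxin receptor under the Foxp3 gene, which lets the toxin kill regulatory T cells. Both genotypes received diphtheria toxin every second day starting on day 0, so the toxin is shared by all compared groups. The titles name muscles CTx or xINJ, at day 4 or day 8 after cardiotoxin, a snake toxin that destroys muscle fibres. The treatment label reads cardiotoxin for both kinds, and xINJ is kept here as a name alone. DTR- mice gave 3 arrays each for CTx and xINJ at both days. DTR+ mice gave 2 CTx arrays at day 4, 3 CTx arrays at day 8 and 2 xINJ arrays at day 8, and 1 array each of xINJ at day 4 and of untreated muscle at day 0, which entered no comparison. Nothing in the labels says whether arrays of a group came from separate mice, so a p-value measures the spread between these arrays, which may be technical.

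Values are log2 intensities, and 1 unit is a doubling. The arrays had median intensities between 133.05 and 159.53, and precision is set by how few arrays a group holds. Foxp3 itself lay between 6.27 and 6.95 on all 21 arrays, close to the filter level for low values, so the genotypes are compared as labelled. In CTx muscle of DTR- mice at day 4, replicate 1 had the lowest value of its group for 28 of the 30 genes, and its median deviation from the group mean was -0.34. The median SD of the 30 genes in that group was 0.35, against 0.20 over all tested genes. DTR- xINJ day 4 replicate 1 has a time label of 8 days where its title gives day 4. Most counts of the 30 genes that rest on these 2 arrays are given with and without them. The test of gene pairs described below was run with 1 array left out, and not without both. In CTx muscle of DTR+ mice at day 4, replicate 2 was the lower of the 2 arrays for 27 of the 30 genes.

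Glycolysis splits glucose into pyruvate and yields ATP without oxygen, and skeletal muscle, above all its fast fibres, holds the enzymes in large amounts and stores glucose as glycogen. Many steps are run by isozymes, which are enzymes of the same reaction from different genes: mature fibres use forms such as Pfkm, Pgam2, Eno3, Pygm and Phkg1, while immune cells, dividing cells and other tissues use forms such as Hk1, Pfkp and Pgam1. Glycogen phosphorylase is switched on by phosphorylase kinase, a complex of catalytic (Phkg1), regulatory (Phka1, Phkb) and calmodulin subunits, when calcium rises during contraction.

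The starts of 3 genes are shown because they carry the contrast described below, CTx against xINJ muscle of DTR- mice at day 4. Pgam2 and Pgam1 encode the muscle and the non-muscle form of the same enzyme and moved in opposite directions there. Phkg1 had the largest decrease of the 30 in that comparison. Each sequence holds the 250 bases before the transcript start in RefSeq (build GRCm38.p6), read 5' to 3' on the strand of the gene. Capitals mark matches to 3 motifs searched on both strands: CANNTG, the E-box letters bound by MyoD-type factors; the consensus of MEF2, another muscle factor, given by name; and ACGTG, the core letters of hypoxia response elements. Matches of different motifs may overlap.
Pgam2, chr11:5803797-5804046, minus strand: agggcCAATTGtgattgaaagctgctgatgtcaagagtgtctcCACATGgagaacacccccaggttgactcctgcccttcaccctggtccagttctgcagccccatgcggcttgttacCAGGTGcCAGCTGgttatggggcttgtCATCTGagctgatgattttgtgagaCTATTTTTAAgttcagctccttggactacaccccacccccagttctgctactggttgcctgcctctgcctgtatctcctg
Pgam1, chr19:41911621-41911870, plus strand: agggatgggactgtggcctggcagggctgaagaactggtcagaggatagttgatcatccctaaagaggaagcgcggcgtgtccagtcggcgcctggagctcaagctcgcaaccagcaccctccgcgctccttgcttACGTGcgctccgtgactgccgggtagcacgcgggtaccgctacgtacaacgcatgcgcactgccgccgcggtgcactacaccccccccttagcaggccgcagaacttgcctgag
Phkg1, chr5:129879089-129879338, minus strand: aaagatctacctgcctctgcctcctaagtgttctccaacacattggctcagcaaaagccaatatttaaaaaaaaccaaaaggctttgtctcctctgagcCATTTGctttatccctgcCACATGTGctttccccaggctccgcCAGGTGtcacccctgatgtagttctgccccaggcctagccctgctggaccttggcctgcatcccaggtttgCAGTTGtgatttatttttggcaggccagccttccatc

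The Pgam2 window held 5 CANNTG matches and a MEF2 match 80 to 71 bases before the start. The Pgam1 window held no match to either and 1 ACGTG match, 114 to 110 bases before the start. The Phkg1 window held 5 CANNTG matches, of which 2 overlap. Of the 30 genes, 28 had 40 such windows in all, some of them from alternative starts of 1 gene. CANNTG was in 29 of the 40 (72.5%) and in 66.2% of all 32851 windows, the MEF2 consensus was in 1 of the 40 (2.5%) and in 2.92% of all windows, and ACGTG was in 18 of the 40 (45%, in windows of 15 genes) and in 16.6% of all windows. A match is a stretch of letters and says nothing on binding, and windows of 1 gene share sequence.

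The first comparison was CTx against xINJ muscle of DTR- mice at day 4. Of the 30 genes, 23 fell and 5 rose (limma, Benjamini-Hochberg adjusted p under 0.05). Over all 13278 genes 46.6% passed, 20.5% lower and 26.1% higher. The median log2 fold change of the 30 genes was -1.13, against -0.01 over all tested genes. Of all genes called, 56.1% were higher; with array medians centred this was 44.3% and with quantile normalization 44.6%, the median of all genes was -0.12 with centring, and 4 of the 30 genes rose and 23 fell with both. The decreases reached 7.79-fold for Phkg1 and were smallest for Pgk1 and Aldoa, while the increases were in Pgam1, Pfkp, Hk1, Pgm2 and Pfkl. Slc2a1 (-0.07) and Aldoc (0.04) did not pass. In whole muscle, fewer cells of a type and less RNA per cell cannot be told apart. Fast fibre markers moved in the same comparison: 8 of 9 fell (median -0.84), and their mean log2 level was 12.21 to 12.80 in CTx and 13.40 to 13.50 in xINJ arrays. Macrophage markers rose for 8 of 8 (median 3.63), from 7.26 to 7.72 in xINJ to 10.89 to 11.27 in CTx arrays. Regenerating fibre markers rose for 6 of 6 (median 3.91), and endothelial markers fell for 4 of 5 (median -0.91). Their part in the results on the 30 genes was not tested. Without CTx replicate 1, 5 genes rose and 21 fell with a median of -0.90, and without both doubted arrays 4 rose and 21 fell with a median of -0.99. In the latter Aldoa (-0.38, limma adjusted p = 0.0524), Pgk1 (-0.45, limma adjusted p = 0.0674) and Pfkl (0.36, limma adjusted p = 0.139) did not pass.

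**Figure D1:**
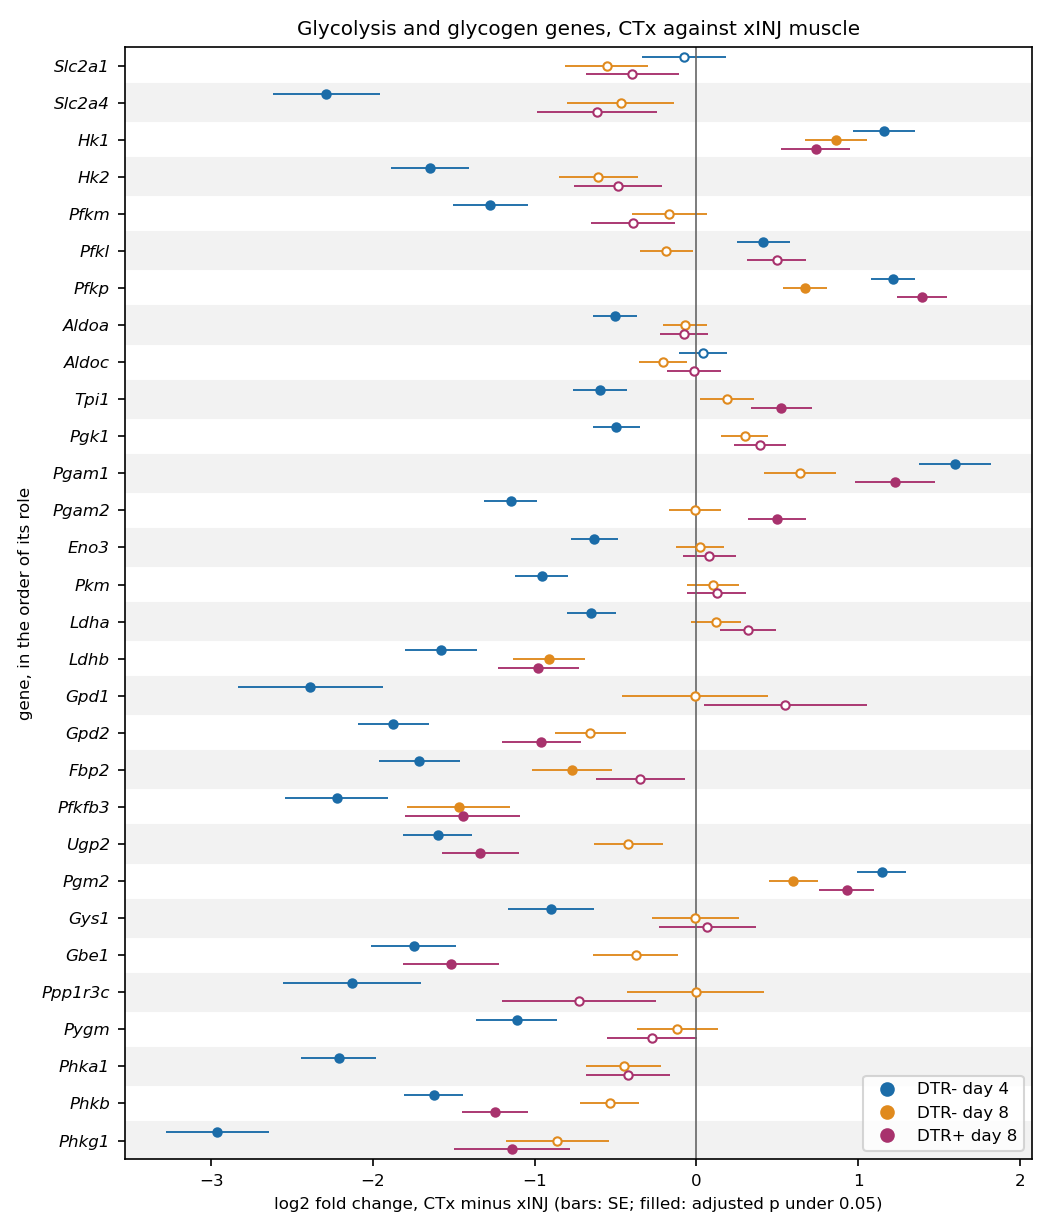
Log2 fold change of CTx over xINJ muscle for the 30 genes, 1 row per gene in the order of its role. Points are limma estimates in DTR- mice at day 4, DTR- mice at day 8 and DTR+ mice at day 8, bars are the SE, and filled points have an adjusted p under 0.05. At day 4 in DTR- mice 23 points lie filled to the left of 0 and 5 to the right; at day 8 most points lie nearer to 0.

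Glucose enters muscle through Slc2a4, the insulin-regulated carrier GLUT4, and through Slc2a1, the basal carrier GLUT1. Slc2a4 measured 11.90, 12.14 and 12.34 in DTR- xINJ muscle at day 4 and 8.72, 10.41 and 10.38 in CTx muscle. Every CTx array lay below every xINJ array, and CTx replicate 1 lay far below the others. The fall was 4.88-fold (log2 fold change -2.29 ± 0.33, SE, limma adjusted p = 1.515e-05), and -1.73 without CTx replicate 1. Slc2a1 gave 8.70, 9.21 and 9.75 in xINJ and 8.82, 9.55 and 9.07 in CTx muscle, with overlapping groups and a 95% interval of the difference from -0.62 to 0.47.

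Of the 8 measured genes of the preparatory steps, which spend ATP to turn glucose into triose phosphates, 4 fell and 3 rose. The isozymes of a step parted. Hexokinase traps glucose in the cell, and Hk2, the insulin-responsive form of muscle, fell from 10.69, 10.53 and 10.92 to 8.41, 9.15 and 9.64 (-1.65 ± 0.24, SE). Hk1, the form of most other tissues, rose from 7.28, 7.64 and 7.80 to 8.42, 9.01 and 8.78 (1.16 ± 0.19, SE), a 2.24-fold increase with no overlap between the groups (limma adjusted p = 5.531e-05). Phosphofructokinase commits the sugar to glycolysis. Its muscle form Pfkm fell from 13.25, 13.41 and 13.61 to 11.50, 12.38 and 12.56 (-1.27 ± 0.23, SE). Its platelet form Pfkp rose from 6.91, 6.67 and 6.84 to 8.17, 8.04 and 7.86 (1.22 ± 0.14, SE, limma adjusted p = 7.639e-07). In xINJ muscle Pfkp sat at the filter level, above it on 2 of 3 arrays. The liver form Pfkl rose by 0.41 with overlapping groups and an adjusted p of 0.04628 by limma, and it no longer passed without xINJ replicate 1 (0.27) or 2 (0.38), without CTx replicate 2 (0.29) or 3 (0.45), or with array medians centred (0.31). Aldoa, the aldolase of muscle, fell by 0.50 and Tpi1, triose phosphate isomerase, fell by 0.60, the latter not past the threshold without CTx replicate 1 (limma adjusted p = 0.0546). Aldoc, the brain aldolase, lay between 6.45 and 7.06 on all arrays and passed the test in no comparison.

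The pay-off steps earn ATP, and 4 of the 5 measured genes fell at day 4. Pgk1, which makes the first ATP of this phase, fell by 0.50, Eno3, the muscle enolase, by 0.63, and Pkm, pyruvate kinase, by 0.96. Phosphoglycerate mutase, which acts between the enzymes encoded by Pgk1 and Eno3, has a muscle form that fell and another form that rose. Pgam2, the muscle form, went from 12.28, 12.48 and 12.47 to 11.17, 11.43 and 11.18 (-1.15 ± 0.16, SE, limma adjusted p = 1.074e-05). Pgam1, the form of other tissues, went from 8.42, 8.86 and 9.13 to 10.16, 10.79 and 10.26 (1.60 ± 0.22, SE, limma adjusted p = 8.958e-06). No array of either gene crossed between the groups. Pgk1 and Pgam1 each had a further probe set with nearly the same change (-0.48 and 1.55), and processed copies of these genes may share their probes. The 19 probe sets that list Gapdh with other symbols differed by -0.31 to -0.16, with no test.

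Lactate dehydrogenase and the glycerol phosphate shuttle return NADH to NAD+, and all 4 of their genes fell. Ldha, the subunit of fast muscle, fell by 0.65 (1.57-fold). Ldhb, the subunit of heart and oxidative fibres, fell by 1.58 (2.99-fold), from 9.45, 9.64 and 10.27 to 7.86, 8.58 and 8.18. A further Ldhb probe set changed by -1.36. Gpd1, the cytosolic enzyme of the shuttle, went from 12.25, 12.16 and 12.46 to 8.40, 10.58 and 10.73. This 5.23-fold fall (-2.39 ± 0.45, SE) had the widest spread of the 30 genes within a group (SD 1.30), and without CTx replicate 1 it was -1.64. Gpd2, the mitochondrial enzyme, fell by 1.87.

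Both measured genes that set the level of fructose bisphosphates fell. Pfkfb3 makes the activator of phosphofructokinase, and it went from 11.54, 11.22 and 10.93 to 8.43, 9.36 and 9.22 (-2.22 ± 0.32, SE, 4.67-fold). Fbp2, the muscle fructose bisphosphatase, which runs the step backwards, fell by 1.71 to values of 6.64, 6.77 and 7.18, of which 1 lay below the filter level.

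Glycogen synthesis starts from glucose 1-phosphate. Of its 5 genes, 4 fell at day 4: Ugp2, which makes UDP-glucose, by 1.60, Gbe1, the branching enzyme, by 1.75, Ppp1r3c, which brings a phosphatase to glycogen, by 2.13, and Gys1, muscle glycogen synthase, by 0.90. The Gys1 fall did not pass without CTx replicate 1 (-0.57, limma adjusted p = 0.0791) or without xINJ replicate 3 (-0.71). Ppp1r3c was 11.48, 10.67 and 10.70 in xINJ and 7.96, 9.14 and 9.37 in CTx muscle. Pgm2 rose from 7.39, 7.54 and 7.41 to 8.50, 8.81 and 8.47 (1.15 ± 0.15, SE). In the current naming used by the array annotation this symbol is a phosphopentomutase, and the phosphoglucomutase of muscle glycogen is Pgm1, which is not among the 34 genes. Pgm1, named here for that reason after its values were seen, fell by 1.62 (limma adjusted p = 2.136e-05).

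All 4 genes of glycogen breakdown fell. Pygm, muscle glycogen phosphorylase, cleaves glucose units from glycogen and went from 13.66, 13.89 and 14.00 to 11.83, 13.27 and 13.11 (-1.11 ± 0.25, SE). The fall was -0.66 without CTx replicate 1 and still passed (limma adjusted p = 0.00237). Phkg1, the catalytic subunit of phosphorylase kinase, went from 11.74, 11.53 and 11.82 to 7.61, 9.38 and 9.22. It had the largest change of the 30 genes (-2.96 ± 0.32, SE, limma adjusted p = 4.692e-07), and -2.40 without CTx replicate 1. The regulatory subunits Phka1 and Phkb fell by 2.21 and 1.62.

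**Figure D2:**
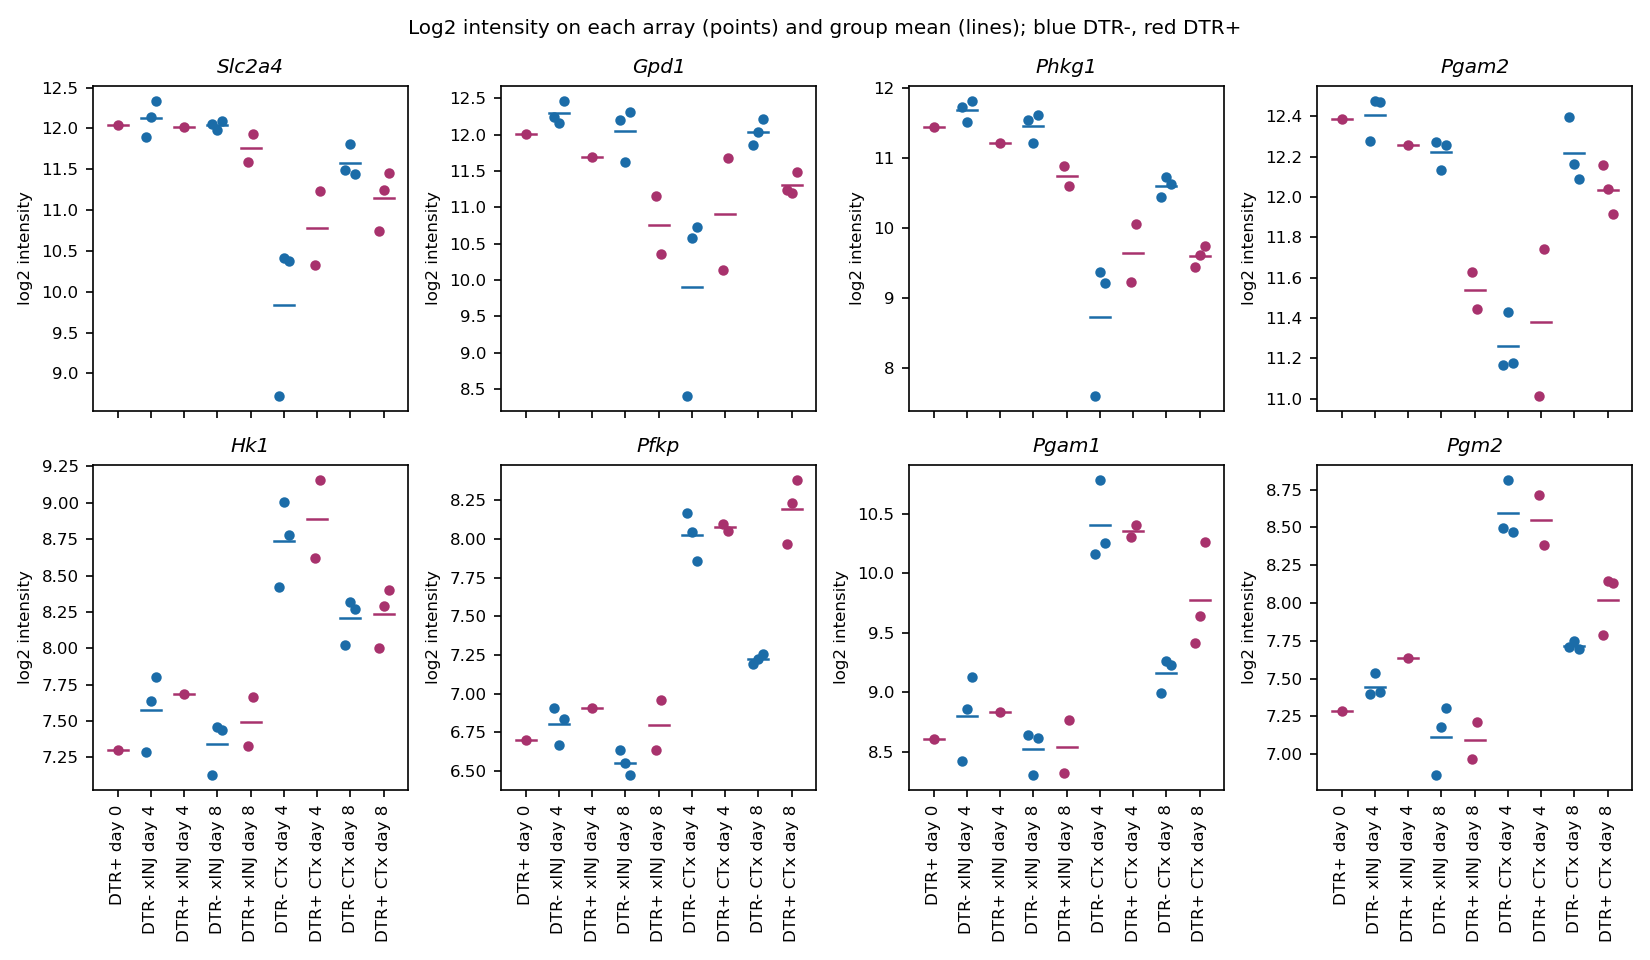
Log2 intensity of 8 of the genes on each array (points) with the group mean (line), DTR- in blue and DTR+ in red, groups along the horizontal axis. Each panel has its own vertical scale. Slc2a4, Gpd1, Phkg1 and Pgam2 have their lowest group mean in CTx muscle of DTR- mice at day 4, and Hk1, Pfkp, Pgam1 and Pgm2 are higher in CTx muscle than in xINJ muscle.

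Because isozymes are measured on the same arrays, the change of one can be set against that of the other, which cancels the scale of an array. For 12 pairs the difference between the genes was compared between CTx and xINJ muscle over 3 strata (DTR- day 4, DTR- day 8, DTR+ day 8) by an exact two-sided permutation test over samples within strata. The smallest p it allows is 0.00025, and p-values were adjusted over the 12 pairs by the Benjamini-Hochberg method. In 10 of 12 pairs the mean shift over the strata passed the threshold of 0.05. The test is on this mean, so a pair can pass without a shift in every stratum. In DTR- mice at day 4, 46.6% of all tested genes differed between CTx and xINJ muscle by limma. How many pairs of other genes would pass, or lack overlap in every stratum, was not counted. The count therefore does not set these isozymes apart from other genes. Since the shifts rest on the same samples as the changes above, they are no independent support for those changes.

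The shift of Hk2 minus Hk1 was -2.81 in DTR- mice at day 4, -1.47 in DTR- mice at day 8 and -1.22 in DTR+ mice at day 8, with no overlap in any stratum (exact permutation test, adjusted p = 0.000429). Pfkm minus Pfkp shifted by -2.49, -0.84 and -1.79 in the same order, also without overlap (exact permutation test, adjusted p = 0.000429). Pgam2 minus Pgam1 shifted by -2.75, -0.65 and -0.73, with overlap in DTR+ mice (exact permutation test, adjusted p = 0.0015). In DTR+ mice at day 8 both genes were higher in CTx muscle, Pgam2 by 0.50 and Pgam1 by 1.23. The muscle subunits of phosphorylase kinase fell against their liver counterparts in all 3 strata, with shifts of -3.30, -1.02 and -1.07 for Phkg1 minus Phkg2 and of -3.76, -0.996 and -1.05 for Phka1 minus Phka2 (exact permutation test, adjusted p = 0.000429 each). Pygm shifted against the brain form Pygb by -1.91, -0.33 and -0.90 and against the liver form Pygl by -1.87, -0.24 and -0.63 (exact permutation test, adjusted p = 0.000429 each).

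For lactate dehydrogenase the shift had the opposite sign. Ldha rose against Ldhb by 0.93, 1.04 and 1.30, with no overlap in any stratum (exact permutation test, adjusted p = 0.000429). Of the 6 slow fibre markers, 4 rose in each of the 3 comparisons (medians 2.59, 1.82 and 2.22), and 1 fell at day 4. Regenerating fibre markers rose for 6 of 6 in each (medians 3.91, 3.07 and 3.25). Whether the slow fibre markers reflect more slow fibres was not tested, nor was the part of either set in the shift of Ldha against Ldhb. Pfkm against Pfkl shifted by -1.69 and -0.89 in DTR- mice at day 4 and DTR+ mice at day 8 but by 0.02 in DTR- mice at day 8 (exact permutation test, adjusted p = 0.00733). Slc2a4 against Slc2a1 shifted by -2.21, 0.09 and -0.22 (exact permutation test, adjusted p = 0.0342), and not past the threshold without DTR- xINJ day 8 replicate 1 (adjusted p = 0.0702) or with quantile normalization (adjusted p = 0.0663). Aldoa against Aldoc (mean shift -0.16) and Gpd1 against Gpd2 (mean shift 0.55) did not pass (exact permutation test, adjusted p = 0.098 each). Gpd1 against Gpd2 passed without DTR- CTx day 4 replicate 1 (mean shift 0.69), and Aldoa against Aldoc without DTR+ CTx day 8 replicate 1 (-0.19).

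**Figure D3:**
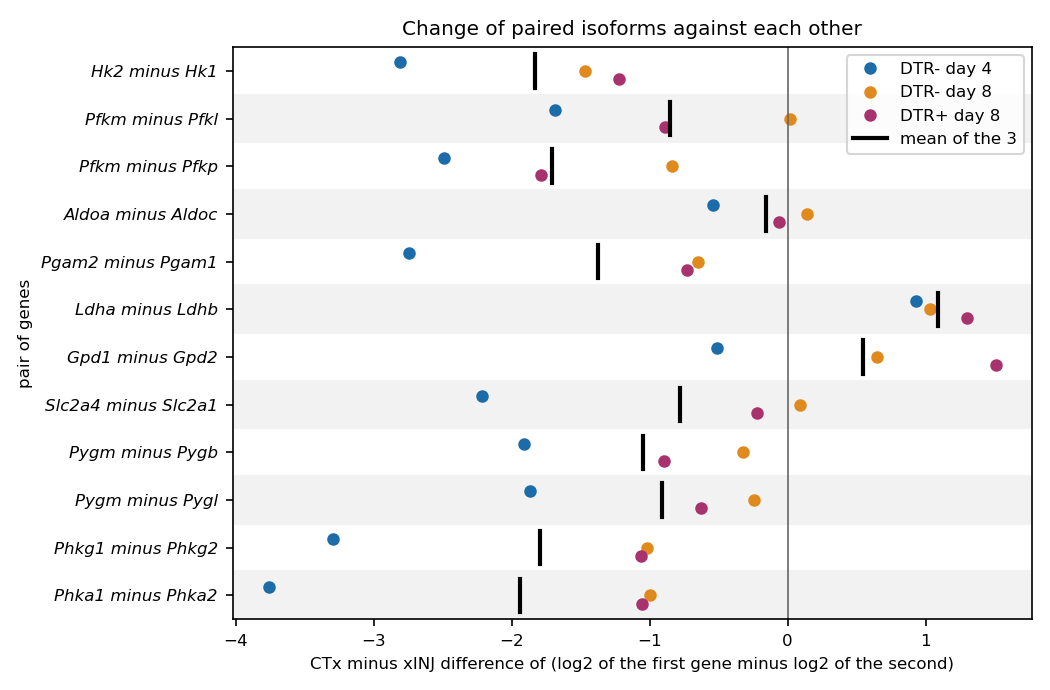
Shift between CTx and xINJ muscle in the log2 difference of 2 paired genes, 1 row per pair. Points are the 3 strata, and the black line is their mean. Points left of 0 mean that the first gene fell against the second; Ldha minus Ldhb is to the right of 0 in all 3 strata.

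Fewer of the genes differed at day 8. In CTx against xINJ muscle of DTR- mice, 3 of the 30 genes were higher and 3 lower (median -0.14, over all tested genes 0.03), where 13.5% of all genes passed, 10.4% higher and 3.17% lower. With array medians centred, or with quantile normalization, 3 were higher and 5 lower, and the share of higher genes among all called went from 76.6% to 62.6% and 61.2%. Hk1 (0.86), Pfkp (0.67) and Pgm2 (0.60) were higher, and Pfkfb3 (-1.47), Ldhb (-0.91) and Fbp2 (-0.77) were lower. Of these, Hk1, Pfkp and Pfkfb3 passed with any 1 array left out. Fbp2 lost its call whichever of the 6 arrays was left out (-0.87 to -0.60, limma adjusted p up to 0.224), Ldhb lost it without CTx replicate 3 (-0.70) and Pgm2 without xINJ replicate 1 (0.47). Gys1, Ppp1r3c, Gpd1 and Pgam2 differed by 0.00, 0.00, -0.01 and -0.01. For Ppp1r3c the SD was 0.48 in CTx and 1.04 in xINJ arrays, the highest of the 30 genes in each group. Its difference of 0.00 does not show equal levels. The 95% interval of Pgam2 ran from -0.34 to 0.33. Of the fast fibre markers 0 of 9 passed (median -0.08), and macrophage markers were higher for 8 of 8 (median 2.48).

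CTx muscle of DTR- mice was then compared between the days, day 8 against day 4. Of the 30 genes, 21 rose and 5 fell (median 0.85, over all tested genes 0.02), where 29.7% of all genes passed, 11.6% higher and 18% lower. Ppp1r3c rose most, from 7.96, 9.14 and 9.37 to 11.23, 11.47 and 10.54 (2.26 ± 0.43, SE, limma adjusted p = 0.000518). Gpd1 rose by 2.13 to 11.86, 12.04 and 12.21, Phkg1 by 1.87 to 10.44, 10.74 and 10.64, and Slc2a4 by 1.74 to 11.49, 11.81 and 11.44. Groups of both days did not overlap for any of these 4 genes. The 5 genes that fell are the 5 called higher in CTx than in xINJ muscle at day 4: Pgam1 (-1.24), Pgm2 (-0.88), Pfkp (-0.80), Pfkl (-0.65) and Hk1 (-0.53). The fall of Hk1 passed in 1 of 6 fits with 1 array left out, that without CTx day 4 replicate 1 (-0.59 to -0.40 in the other 5, limma adjusted p = 0.0584 to 0.182), and it did not pass with quantile normalization (-0.45) or without the filter. The comparisons share the CTx arrays of day 4, so this is no separate evidence. Without CTx day 4 replicate 1, 18 rose and 5 fell (median 0.53), and the rise of Gpd1 was 1.38, of Slc2a4 1.19 and of Phkg1 1.31, that of Pygm went from 0.94 to 0.49, and Tpi1 (0.41), Aldoa (0.25) and Gys1 (0.49) no longer passed. Without both doubted arrays 16 rose and 5 fell, and Eno3 (0.40) and Ldha (0.42) did not pass either. Fast fibre markers rose for 8 of 9 (median 0.71), and macrophage markers fell for 8 of 8 (median -1.95). Their part in the result was not tested. In DTR- xINJ muscle 0 of 30 genes passed over the same days by limma, where 0.0678% of all genes passed (0.00753% higher, 0.0603% lower). Unadjusted limma p was under 0.05 for 1 of 30, and the share of all genes at that level was not counted.

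Set against xINJ muscle of the same day, the CTx difference moved upward from day 4 to day 8 for 16 of 30 genes and downward for 0 (median 0.92, over all tested genes 0.02), where 12.5% of all genes passed, 5.13% upward and 7.34% downward. The largest shifts were in Gpd1 (2.38), Ppp1r3c (2.12), Phkg1 (2.10), Slc2a4 (1.82) and Phka1 (1.76). With 1 array left out, Ppp1r3c passed in 7 of 12 fits, Gpd1 in 11, and Phkg1, Slc2a4 and Phka1 in all 12. Without CTx day 4 replicate 1, 11 genes moved upward and 1, Pgam1 (-1.08), downward. Without both doubted arrays, 6 genes passed: Slc2a4, Pgam2, Pkm, Gpd1, Phka1 and Phkg1. Over all tested genes 427 moved upward and 626 downward in that fit, against 681 and 974 in the main fit. Pfkfb3, whose shift was 0.75, and Ldhb, at 0.67, did not pass in this comparison, and in CTx muscle Pfkfb3 differed by 0.28 and Ldhb by 0.49 between the days.

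**Figure D4:**
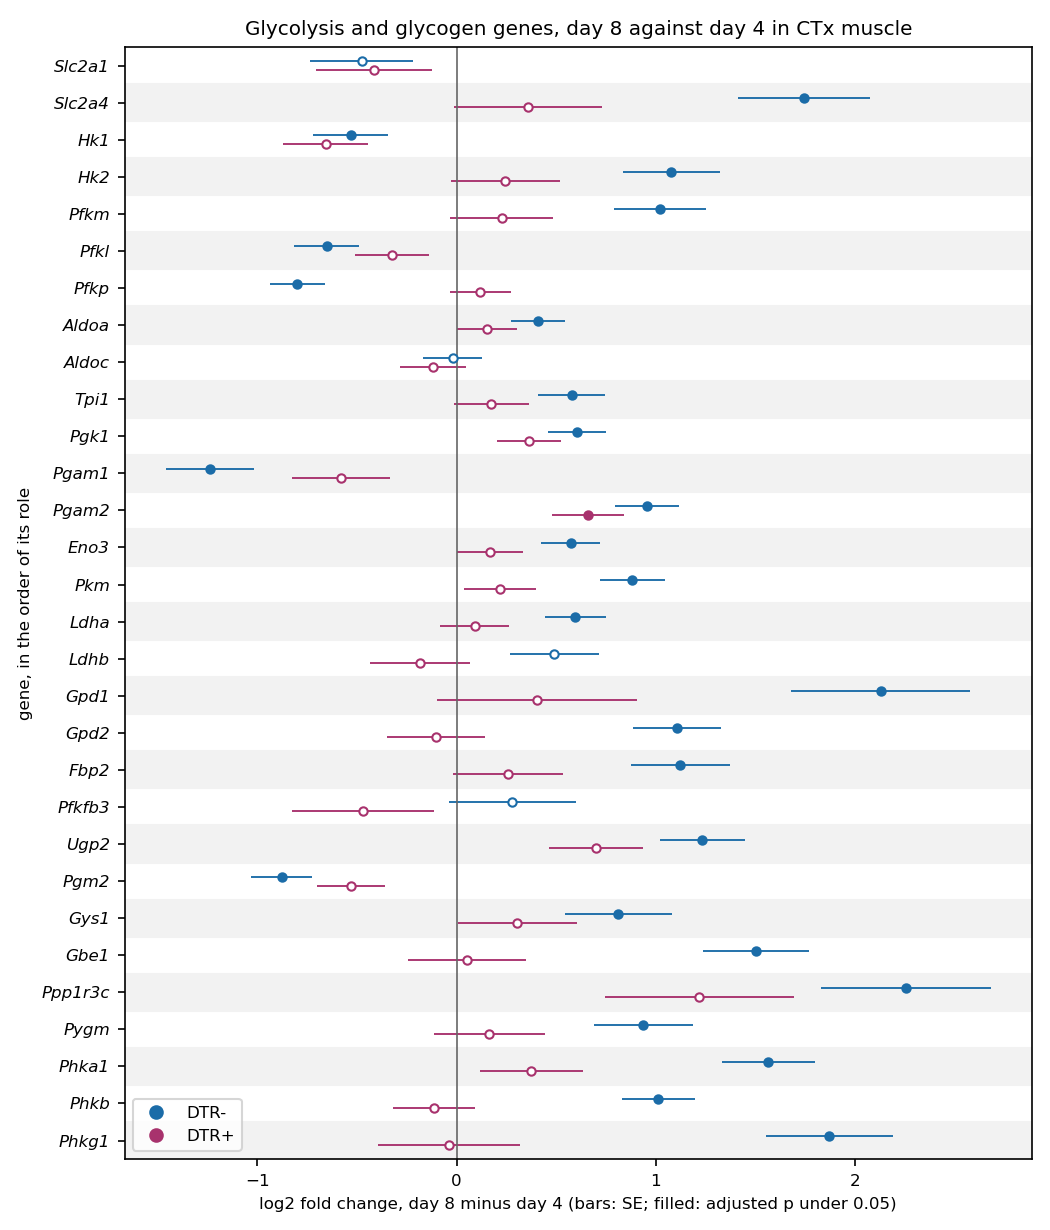
Log2 fold change of day 8 over day 4 CTx muscle for the 30 genes, DTR- in blue and DTR+ in red, with SE bars and filled points where the adjusted p is under 0.05. In DTR- mice 21 genes lie filled to the right of 0 and 5 to the left; in DTR+ mice Pgam2 alone is filled.

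In CTx muscle of DTR+ mice over the same days, 1 of 30 genes passed by limma and the median was 0.16. Of all genes 11.1% passed, 2.84% higher and 8.24% lower. Unadjusted limma p was under 0.05 for 7 of 30, and the share of all genes at that level was not counted. The share of higher genes among all called was 25.6%, and 37.6% with quantile normalization. Pgam2 rose from 11.01 and 11.74 to 12.16, 12.04 and 11.91 (0.66 ± 0.18, SE, limma adjusted p = 0.02301), without overlap. Its rise was 0.29 without DTR+ CTx day 4 replicate 2, 0.60 without DTR+ CTx day 8 replicate 1 and 0.66 without replicate 2 of that group, and it passed in none of these. Without DTR+ CTx day 4 replicate 2 the 1 gene that passed was Hk1 (-0.93), and the median of the 30 genes was -0.13; without replicate 3 of that group the median was 0.34. Phkg1 differed by -0.04 and Gbe1 by 0.05 over the days, where DTR- muscle gave 1.87 and 1.50. Whether the day 4 to day 8 change differed between genotypes is tested below as the change of the genotype difference, which is the same contrast.

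In CTx against xINJ muscle of DTR+ mice at day 8, 6 of the 30 genes were higher and 7 lower (median -0.17, over all tested genes 0.045), where 25.3% of all genes passed, 16.7% higher and 8.51% lower. The share of higher genes among all called was 66.3%, 46.1% with array medians centred and 53.5% with quantile normalization. The higher genes were Pfkp (1.40), Pgam1 (1.23), Pgm2 (0.93), Hk1 (0.74), Tpi1 (0.53) and Pgam2 (0.50). The lower genes were Gbe1 (-1.52), Pfkfb3 (-1.44), Ugp2 (-1.34), Phkb (-1.24), Phkg1 (-1.14), Ldhb (-0.98) and Gpd2 (-0.96). Gbe1 went from 10.92 and 11.53 in xINJ to 9.75, 10.14 and 9.23 in CTx muscle, and Ugp2 from 12.58 and 12.41 to 11.12, 11.28 and 11.08. Pgam2 was 11.63 and 11.44 in xINJ muscle of DTR+ mice, lower than in all other xINJ arrays, and 12.16, 12.04 and 11.91 in CTx muscle. Pfkp, Pgam1, Ugp2, Pgm2, Gbe1 and Phkb passed with any 1 array left out. The number that passed was 8 without DTR+ xINJ replicate 1, where Hk1 was 0.57 and Pfkfb3 -1.33, and without replicate 2 of that group Tpi1 (0.40), Pgam2 (0.41) and Ldhb (-0.80) were among those that did not pass. Tpi1 (0.38) and Pgam2 (0.35) also did not pass with array medians centred. T cell markers rose for 4 of 4 tested (median 1.31) and macrophage markers for 8 of 8 (median 2.47), which in DTR- mice at day 8 was 1 of 4 (0.37) and 8 of 8 (2.48). Their part in the result was not tested.

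The study asks what the absence of regulatory T cells does to injured muscle, which is the comparison of genotypes. In CTx muscle at day 4, 0 of 30 genes passed by limma, where 0.00753% of all genes passed. Unadjusted limma p was under 0.05 for 5 of 30, and the share of all genes at that level was not counted. The 30 genes lay above 0 for 28 (median 0.29, over all tested genes 0.02), and the median was 0.12 without DTR- CTx replicate 1 and 0.50 without DTR+ CTx replicate 2. Slc2a4 was 8.72, 10.41 and 10.38 in DTR- and 10.33 and 11.24 in DTR+ muscle, with overlapping groups and a difference of 0.95 that was 0.39 without DTR- replicate 1.

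In CTx muscle at day 8, Pfkp was higher and Phkb lower in DTR+ mice, and the other 28 genes did not pass. By the same adjusted threshold 3.68% of all genes passed, 3.03% higher and 0.655% lower. Unadjusted limma p was under 0.05 for 9 of 30, and the share of all genes at that level was not counted. Pfkp measured 7.19, 7.22 and 7.26 in DTR- and 7.97, 8.23 and 8.38 in DTR+ muscle, 1.96-fold higher (0.97 ± 0.14, SE, limma adjusted p = 0.0002276) and past the threshold in every alternative run. Phkb measured 11.42, 11.70 and 11.44 in DTR- and 10.77, 11.06 and 10.15 in DTR+ muscle, 1.82-fold lower (-0.86 ± 0.18, SE, limma adjusted p = 0.008475). It did not pass without DTR+ replicate 3 (-0.61), which was the lowest array, or without DTR- replicate 2 (-0.78), nor with only the compared groups in the fit (limma adjusted p = 0.0596). Phkg1 (10.44, 10.74 and 10.64 against 9.45, 9.62 and 9.75) and Gpd2 (10.44, 10.59 and 10.62 against 9.57, 9.92 and 9.86) did not overlap between genotypes and had limma adjusted p-values of 0.107 and 0.06397. Gpd2 passed with array medians centred (-0.81), quantile normalization (-0.73), only the compared groups or the replicate number as a block (limma adjusted p = 0.0159 to 0.0434), and Phkg1 with only the compared groups (limma adjusted p = 0.00419). In all, 17 of 30 genes did not overlap between the groups, where 20.8% of all tested genes did not, 22 of the 30 lay below 0, and the median was -0.20. The 95% interval was -0.32 to 0.25 for Aldoa, -0.49 to 0.13 for Eno3 and -0.52 to 0.13 for Ldha. In the same comparison T cell markers rose for 4 of 4 tested (median 1.54). The mean level of the 5 with a probe set went from 6.19 to 6.44 in DTR- to 7.16 to 8.02 in DTR+ arrays. Of these 5, 3 (Cd3g, Cd3d and Cd8a) lay below the filter level on every DTR- array, and Cd3d also on every DTR+ array. Macrophage markers rose for 4 of 8 (median 0.82), from 9.12 to 9.24 to 9.88 to 10.02, and fast fibre markers passed for 0 of 9 (median -0.14). Endothelial markers fell for 2 of 5 (median -0.88). Their part in the differences of Pfkp and Phkb was not tested.

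The genotype difference in CTx muscle changed from day 4 to day 8 for 1 of 30 genes, Pfkp (0.92 ± 0.20, SE, limma adjusted p = 0.04774; 0.587% of all genes passed, 0.557% upward and 0.0301% downward). Pfkp measured 8.17, 8.04 and 7.86 in DTR- and 8.10 and 8.05 in DTR+ muscle at day 4, so the genotypes overlapped at day 4 and were apart at day 8. It did not pass in 9 of the fits that leave out 1 array of these groups (0.82 to 0.94), with limma adjusted p-values up to 0.311, the highest without DTR+ CTx day 4 replicate 3; it passed without DTR- CTx day 4 replicate 3 (1.00) or DTR+ CTx day 8 replicate 1 (1.03). The median over the 30 genes was -0.60 (over all tested genes -0.02) with 25 below 0, and -0.35 without DTR- CTx day 4 replicate 1. Phkg1 gave -1.91 (limma adjusted p = 0.0763) and Phkb -1.13 (limma adjusted p = 0.0661). Phkb passed without DTR+ CTx day 8 replicate 2 (-1.33) or without DTR- CTx day 4 replicate 3 (-1.23). Gbe1 passed without DTR- CTx day 4 replicate 3 (-1.73). Phkg1 passed without DTR+ CTx day 4 replicate 2 (-2.33) and without DTR- CTx day 4 replicate 2 (-2.24) or 3 (-2.15), and was -1.35 without DTR- CTx day 4 replicate 1. Phka1 (-1.57) and Fbp2 (-1.43) passed as well without DTR+ CTx day 4 replicate 2.

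In xINJ muscle at day 8, Pgam2 was lower in DTR+ mice (12.27, 12.14 and 12.26 against 11.63 and 11.44; -0.68 ± 0.18, SE, limma adjusted p = 0.0494), and it did not pass with any 1 of the 5 arrays left out (-0.78 to -0.59). The other 29 genes did not pass, and 2.61% of all genes passed, 1.81% higher and 0.806% lower. Unadjusted limma p was under 0.05 for 6 of 30, and the share of all genes at that level was not counted. Of the 30 genes 23 lay below 0 (median -0.20, over all tested genes -0.01), against 22 (median -0.20) in CTx muscle at day 8. The groups did not overlap for 17 of 30, as many as in CTx muscle, with no count over all genes for xINJ muscle. By limma, the genotype difference did not differ between CTx and xINJ muscle at day 8 past the threshold for any of the 30 genes. Of all genes 0.233% passed (0.105% upward, 0.128% downward). Unadjusted limma p was under 0.05 for 5 of the 30, again with no count over all genes. The estimate for Pfkp was 0.72 (95% interval 0.30 to 1.15, limma adjusted p = 0.215). In xINJ muscle at day 8 macrophage markers were higher in DTR+ mice for 3 of 8 (median 0.65). T cell (median 0.40), endothelial (median -0.35) and fast fibre markers (median -0.04) passed for 0 of 4, 0 of 5 and 0 of 9. The genotype difference differed between CTx and xINJ muscle for 0 of 8 macrophage markers (median 0.03) and 0 of 4 T cell markers (median 1.14). The part of these markers in the results was not tested.

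Other genes of the pathway were taken from lists that hold no member of the 34. In CTx against xINJ muscle of DTR- mice at day 4, where 26.1% of all tested genes rose and 20.5% fell, 9 of 13 tested genes of pyruvate entry to the mitochondrion fell and 1 rose (median -0.98), with Pdpr at -1.92, Mpc1, a subunit of the pyruvate carrier, at -1.37 and Pdha1, of pyruvate dehydrogenase, at -1.18. Pdk3, a kinase that switches pyruvate dehydrogenase off, rose by 1.95. Of 7 pentose phosphate genes, which make NADPH and ribose, 4 rose and 2 fell (median 0.51), with Pgd at 1.33 and Tkt at 1.10. Of 7 sugar and lactate transport genes 1 rose and 5 fell (median -0.60), with the lactate exporter Slc16a3 at -1.65 and the lactate carrier Slc16a7 at 1.93. Of 14 further glycogen genes 5 rose and 6 fell (median -0.06), with Phka2 at 1.55 and Epm2a, laforin, at -2.43. Of 10 further isozymes and side enzymes 3 rose and 5 fell (median -0.36), with Hk3, the hexokinase of leukocytes, at 1.12 and Bpgm at -1.43.

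Of 16 regulators, 4 rose and 10 fell in the same comparison (median -0.63; over all tested genes 26.1% rose and 20.5% fell). Hif1a, the oxygen-sensing factor that drives glycolytic genes, rose by 1.44 and Myc by 1.39, and Mlxipl, a glucose-sensing factor, fell by 2.02. From day 4 to day 8 in DTR- CTx muscle, where 11.6% of all genes rose and 18% fell, 11 of the 13 pyruvate genes rose and 1 fell (median 0.98), 3 of the 7 pentose phosphate genes fell and 1 rose (median -0.37), and Hif1a fell by 1.05. In CTx against xINJ muscle at day 8, the transport, glycogen, isozyme, pentose phosphate, pyruvate and regulator lists had 0, 3, 3, 1, 1 and 0 genes higher and 1, 2, 1, 0, 1 and 0 lower in DTR- mice, where 10.4% of all genes were higher and 3.17% lower. In DTR+ mice they had 2, 4, 1, 2, 2 and 1 higher and 1, 4, 2, 1, 3 and 4 lower, where 16.7% of all genes were higher and 8.51% lower. In CTx muscle at day 8 the genotypes differed in 2 genes of these lists, Hk3 (0.98 higher in DTR+) and the sugar carrier Slc2a12 (-0.84). In xINJ muscle at day 8 the transport, isozyme and pyruvate lists each had 1 gene lower in DTR+ mice. The regulator list had 1 higher and 1 lower. Over all genes 1.81% were higher and 0.806% lower there. No tested gene of these lists passed for a genotype difference that differed between CTx and xINJ muscle at day 8.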

How the data were processed

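Affymetrix Mouse Gene 1.0 ST arrays of 21 muscles in 9 groups were analysed. The deposited values are linear intensities per probe set (24922), made by the authors with Affymetrix Power Tools and RMA, per the submitters' processing notes; their versions are not given in the sources used. Log2 was taken. Probe sets with 1 symbol (21425) were kept, those listing several (1399) were not, and a gene with several took the brightest on average (921 of 19752 genes). To be tested, a gene had to exceed, on 2 or more arrays, the 40th percentile of that array, a log2 level between 6.62 and 6.84; 13278 genes did.

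Group means were fitted to all 21 samples with limma 3.58.1 (lmFit, eBayes) in R 4.3.3, with 12 residual degrees of freedom, 12 contrasts and two-sided p-values adjusted by Benjamini-Hochberg over all tested genes at 0.05. The fit was tested on simulated data. An exact permutation test of 3 against 3 or 3 against 2 arrays cannot go below p = 0.1, so single genes rest on the limma fit. Same-numbered samples of different groups correlated at -0.208 to 0.468 in their deviations (8 pairs, median 0.221, 5 over 0.1), and differently numbered samples at -0.663 to 0.582 (16 pairs, median -0.067, 3 over 0.1). Since not every same-numbered pair exceeded 0.1, the numbers were not taken to pair samples. This rule cannot exclude pairing, because deviations within groups of 2 or 3 arrays make the correlations depend on each other. CTx and xINJ arrays were treated as unpaired in the main fit and in the permutation test. A replicate block was run as an alternative for the limma fit only. No 2 arrays held identical values.

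Named were the 34 listed genes and, of the other pathway lists, up to 4 per list and comparison that passed, smallest p first. The genes and lists were chosen with earlier results of these data known. Alternatives were other scaling, filters, probe set means, empirical Bayes options, only the compared groups, a replicate block, the day of the array with 2 time labels, and leaving out each array. Leaving out both doubted arrays was chosen after seeing the data.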

Additional observations from a re-analysis of the deposited data

Results flagged for a closer look

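Results were taken up here where an effect differed between groups by a test of that difference in the limma fit. The difference between CTx and xINJ muscle in DTR- mice changed from day 4 to day 8 (log2, day 8 minus day 4) for 16 genes. In uptake and the preparatory steps these were Slc2a4 (1.82), Pfkm (1.11) and Tpi1 (0.79). In the pay-off steps they were Pgk1 (0.79), Pgam2 (1.14), Eno3 (0.65) and Pkm (1.06), and in lactate and shuttle metabolism Ldha (0.77), Gpd1 (2.38) and Gpd2 (1.22). In glycogen synthesis they were Ugp2 (1.18), Gbe1 (1.37) and Ppp1r3c (2.12), and in glycogen breakdown Phka1 (1.76), Phkb (1.09) and Phkg1 (2.10). Slc2a4, Pgam2, Pkm, Phka1 and Phkg1 passed in every fit run.

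The genotype difference of Pfkp in CTx muscle changed by 0.92 from day 4 to day 8 (limma adjusted p = 0.04774). It passed in 2 of 11 fits with 1 array left out, and not with array medians centred, without the filter, with only the compared groups or without both doubted arrays.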

How the results depend on the processing

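Counts are of the 30 genes past the threshold. Calls over all genes are given beside them for some settings only, so the other changes in count cannot be set against all genes. No gene or pair value turned its sign past the threshold. Of 3264 values under other settings 3111 kept direction and call, and of 2724 with 1 array left out 2444 did. Values of the same sign called in neither fit count as kept. Fewer calls held with any 1 array left out. In DTR- mice these were 25 of 28 (CTx against xINJ, day 4), 3 of 6 (day 8), 22 of 26 (days, CTx) and 9 of 16 (CTx difference over days). For genotype in CTx muscle at day 8 it was 1 of 2. With only the compared groups, CTx against xINJ in DTR- mice at day 8 gave 13 (main 6) and the genotype comparison in CTx muscle at day 8 gave 5 (main 2). Over all 13278 tested genes the former gave 1885 higher and 793 lower (main 1378 and 421). The latter gave 361 higher and 142 lower (main 402 and 87). From day 4 to day 8 in DTR+ CTx muscle (main 1) the count was 3 with array medians centred, 2 with quantile normalization, 3 above the 60th percentile, 3 with eBayes trend and robust and 3 with the replicate number as a block. For genotype in xINJ muscle at day 8 (main 1) it was 0 with centring, without the filter, with eBayes trend and robust and with the replicate block, and 2 with only the compared groups. For the change of the genotype difference over days (main 1) it was 0 with centring, without the filter, with only the compared groups and without both doubted arrays. For the change of the CTx difference over days in DTR- mice (main 16) it was 6 without both doubted arrays. Over all tested genes that fit gave 427 upward and 626 downward (main 681 and 974). The cause of these changes in count was not tested. With the replicate block, CTx against xINJ gave 28 in DTR- mice at day 4, 9 at day 8 (main 6; Slc2a1, Pgam1 and Gpd2 gained) and 12 in DTR+ mice (main 13; Pgam2 lost). It gave 27 for days in DTR- CTx muscle (main 26; Slc2a1 gained), 3 for genotype in CTx muscle at day 8 (main 2; Gpd2 gained), and 19 upward and 2 downward for the CTx difference over days (main 16 and 0; Hk2, Gys1 and Pygm gained upward, Pgam1 and Pgm2 downward). With the array of doubtful day at day 8, CTx against xINJ in DTR- mice gave 27 at day 4 and 9 at day 8, and the CTx difference over days gave 20.

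With 1 array left out, the counts ran from 26 to 27 (CTx against xINJ, DTR- day 4, main 28), 4 to 6 (DTR- day 8), 8 to 11 (DTR+ day 8, main 13), 23 to 26 (days, DTR- CTx), 0 to 4 (days, DTR+ CTx), 1 to 3 (genotype, CTx day 8), 0 to 0 (genotype, xINJ day 8), 0 to 4 (genotype difference over days), 10 to 19 (CTx difference over days) and 9 to 11 of 12 pairs. Groups of 1 to 3 arrays limit the precision.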
